A study of Mus musculus with 10 samples.

Results

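Potassium channel genes of retinal amacrine cells were examined in single-cell RNA libraries from Chx10-cre-GFP mice at postnatal day 19. A gene was included when its symbol began with Kcn and it had at least 200 unique molecular identifiers (UMIs, each counting 1 captured RNA molecule) over all cells. Of 99 Kcn symbols among 27933 genes, 58 met this rule and 41 did not. Just inside the limit lay Kcnh6 with 209 UMIs and Kcnh8 with 223, and just outside it lay Kcnf1 with 187 and Kcnt2 with 174. No UMI was counted for Kcnk16, Kcnk18, Kcnj15 or Kcnj1. The 58 genes comprised 55 coding genes and 3 noncoding transcripts, Kcnd3os, Kcnmb4os2 and Kcnq1ot1.

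The 10 libraries came from untreated retinas of a single strain and age, so the comparisons here are between cells within libraries. Per the labels' protocols, papain-dissociated cells stained for CD133 and CD73 were sorted, and only viable cells without GFP and without either stain were kept. GFP of this strain is found in bipolar cells, so the sort leaves a fraction rich in amacrine cells. By the labels, batch 1 is a single library (1 of 10), batch 2 has 5 and batch 3 has 4. Separate animals are not mentioned for them, so p-values reflect variation among libraries that may be technical only.

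Potassium channels let potassium leave or enter the cell and thereby set the resting potential, shape the action potential and limit repetitive firing. Voltage-gated channels are tetramers of pore subunits joined by cytoplasmic or silent partners, inward rectifiers include channels opened by G proteins, two-pore-domain channels carry leak current, and a further class opens with internal calcium or sodium. Amacrine cells are interneurons of the inner retina, most of which release GABA or glycine. Members of the voltage-gated and calcium-activated families are known to shape spiking and transmitter release in several amacrine types, among them the starburst cell.

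Cells were sorted into 8 overlapping gates by the UMIs of marker genes. The Gad gate held 16415 cells with at least 2 UMIs of Gad1 plus Gad2, the enzymes that make GABA, and none of Slc6a9. The Slc6a9 gate held 4556 cells with at least 2 UMIs of Slc6a9, the glycine transporter of glycinergic cells, and none of Gad1 or Gad2. The type gates rested on Gjd2 (neuronal connexin, known in AII cells, at least 3 UMIs, 1940 cells), on Chat plus Slc18a3 (acetylcholine synthesis and loading, known in starburst cells, 2 UMIs, 651 cells; the Chat gate below) and on Slc17a8 (vesicular glutamate transporter, 2 UMIs, 666 cells). The other type gates rested on the peptides Vip (5 UMIs, 930 cells) and Npy (10 UMIs, 1548 cells), and on Prom1, which encodes CD133 (2 UMIs, 1358 cells). A gate is named by its gene and is not a cell type.

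Promoter sequence is shown for 3 genes on which the comparisons below turn: Kcna6 and Kcnip1, much lower in the Slc6a9 gate, and Kcnj5, much higher there. Each line gives, of the 250 bases before the first start in the RefSeq promoter table (GRCm38.p6), only those that lie outside the gene in the RefSeq gene table, 5′ to 3′ on the gene's strand. They lie at chr6:126740835-126740924 (90 bases, minus strand), chr11:33993349-33993443 (95 bases, minus) and chr9:32344381-32344594 (214 bases, minus), in that order.
Kcna6: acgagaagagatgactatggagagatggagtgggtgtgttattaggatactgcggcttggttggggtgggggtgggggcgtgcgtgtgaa
Kcnip1: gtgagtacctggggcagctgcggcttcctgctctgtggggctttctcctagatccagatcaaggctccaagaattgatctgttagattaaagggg
Kcnj5: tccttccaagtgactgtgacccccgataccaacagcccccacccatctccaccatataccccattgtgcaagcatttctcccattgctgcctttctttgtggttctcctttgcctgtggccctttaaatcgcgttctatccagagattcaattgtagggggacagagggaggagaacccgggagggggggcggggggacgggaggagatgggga
The table held 62 promoters, each of 300 bases including the first 50 of the transcript, for 43 of the 58 genes, and some of these windows lie partly or wholly inside the annotated gene. Both strands were searched for 5 motifs. The Meis-type motif TGACAG was present in 12 of the 62 promoters and in 19.2% of all 32851 promoters of the table. CAGATG, an E-box bound by neural basic helix-loop-helix factors, was present in 12 of the 62 and in 17.2% of all. TATAAA stood in 2 of the 62 and in 13.6% of all. The palindromic Ebf motif (0.904% of all promoters) and the cyclic AMP response element TGACGTCA (1.79% of all) were in none of the 62, and none of the 5 motifs stood in the printed sequence, which therefore has no capitals. Kcna5 (chr6:126532551-126535555), Kcna1 (chr6:126636463-126645801) and Kcna6 (chr6:126708328-126740834) lie in a row on chromosome 6, with 100.9 and 62.5 kb between them.

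The libraries held 950 to 4738 cells, 32523 in all, and 6302659 to 26028492 UMIs, with a median of 3296.5 to 5717 UMIs per cell. Marker lists were summed in each gate, the gate genes among them, so a high sum of a gate's own list follows in part from the gating. The 6 starburst markers summed to 2144 CPM (UMIs of a gene per 1000000 UMIs of the gate) in Chat-gated and 115 CPM in Gad-gated cells. The 3 markers of glutamatergic amacrine cells summed to 1420 CPM in Slc17a8-gated and 21.6 CPM in Gad-gated cells. Prox1 of the AII list averaged 285 ± 25.5 CPM in Gjd2-gated and 15.8 ± 6.90 CPM in Gad-gated cells (SD, n = 10 libraries). Summed amacrine markers averaged 3818 to 5086 CPM over the gates. Rod markers averaged 82.8 to 144 CPM and microglial markers 0.226 to 24.4 CPM. The Müller list averaged 1286 CPM in Gad-gated and 482 CPM in Slc6a9-gated cells, and dissociation stress genes 966 and 447 CPM; the part of the stress genes in the results was not tested. A total of 1860 cells carried 1 of 923 barcodes that occurred in more than 1 library.

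Levels are CPM of a gene in the summed cells of a gate and library. The counts are of transcript ends, so levels were compared between gates for each gene and not between genes. A sum over a gate cannot tell a level shared by all its cells from a higher level in some of them. The genes together gave 571089 UMIs, 0.333% of all UMIs. Most of these came from the Kcna pore subunits (5 genes, 22.1% of the UMIs), the Kcnc subunits (4 genes, 16.8%), the Kcnip proteins (4 genes, 13.7%) and the Kcnab subunits (3 genes, 9.54%).

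Summed over the 58 genes, the level was highest in Gad-gated cells at 3450 ± 124 CPM and lowest in Slc6a9-gated cells at 2528 ± 232 CPM (SD, n = 10). Every library of the Gad gate, at 3303 to 3637 CPM, lay above every library of the Slc6a9 gate, at 2270 to 2928 CPM. The 6 type gates lay between these means, pooled over batches, from 2765 ± 623 CPM in the Prom1 gate (n = 9) to 3393 ± 336 CPM in the Chat gate. Neighbouring gates in this order overlapped library by library. The sum was higher in batch 2 than in batch 3 in the Gad gate (3547 ± 81.5 against 3327 ± 43.1 CPM, n = 5 and 4) and in the Prom1 gate (3276 ± 199 against 2126 ± 28.2 CPM). This batch difference was not confined to these gates. Libraries of the Chat gate ranged from 3337 to 3842 CPM in batch 2 and from 2837 to 3310 CPM in batch 3. Those of the Slc17a8 gate ranged from 2965 to 3562 and from 2500 to 2872 CPM. The order differed within batches. In batch 3 the Prom1 gate lay below the Slc6a9 gate, which had 2313 ± 39.2 CPM (n = 4). In batch 2 the mean of the Chat gate, 3618 ± 207 CPM (n = 5), lay above that of the Gad gate.

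**Figure D1:**
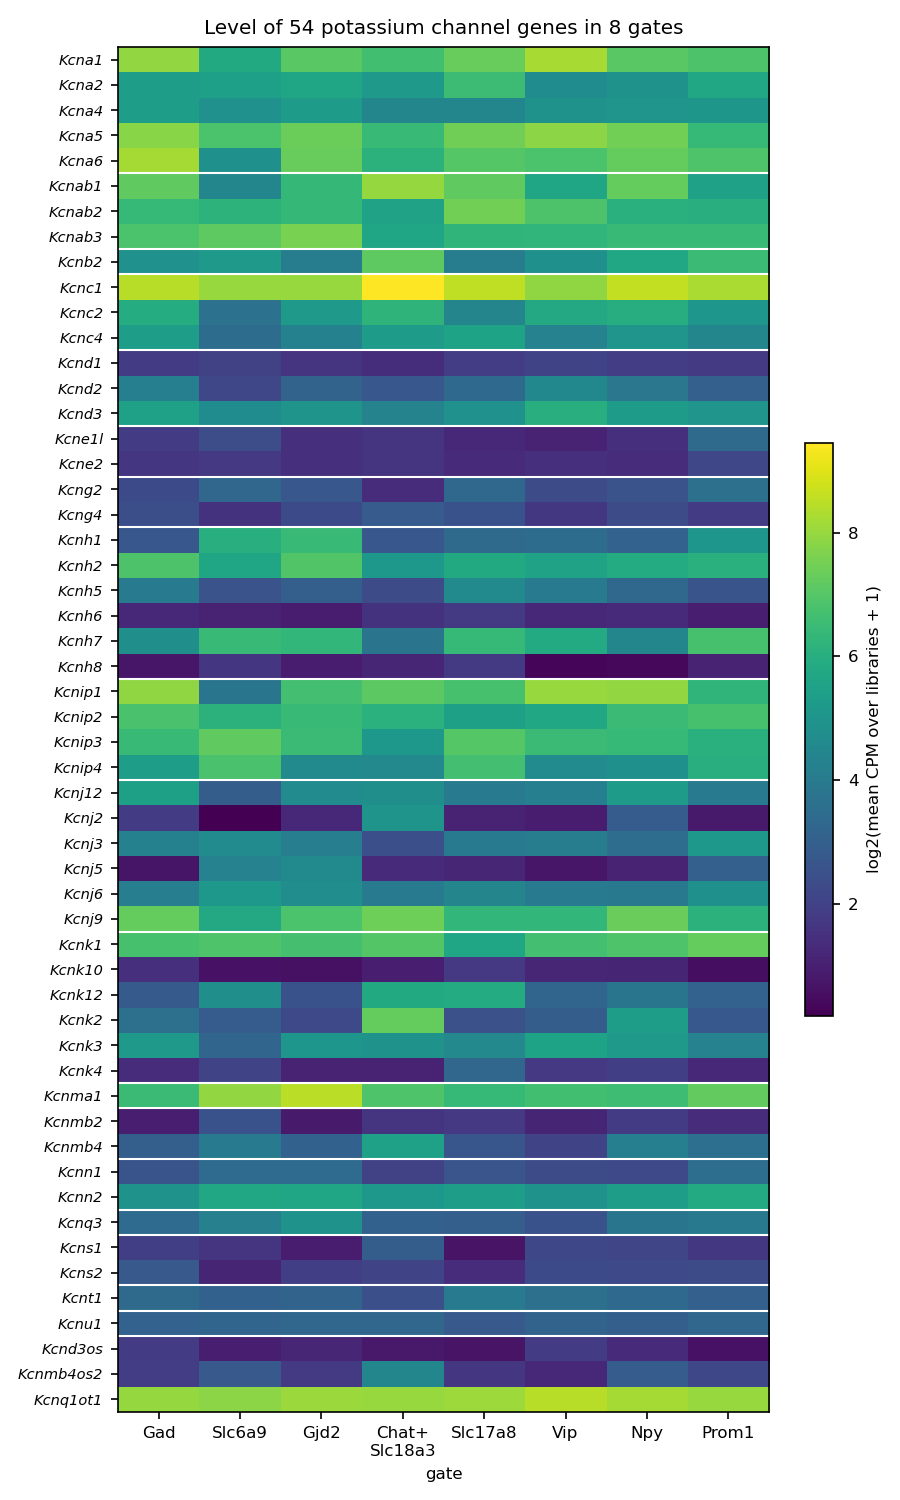
Level of 54 of the genes (rows, grouped by subfamily) in the 8 gates (columns), as log2 of the mean CPM over libraries plus 1. Kcnc1 is brightest in the Chat gate, Kcnip1 and Kcna6 are dark in the Slc6a9 gate, and Kcnk2 is brightest in the Chat gate, followed by the Npy gate.

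The ratio of the highest to the lowest gate mean ran from 1.46 to 40.7 over the 53 genes for which it could be given, the other 5 having 3 UMIs or fewer in their lowest gate. Kcnk2, a two-pore-domain leak channel, had the largest ratio, with 152 ± 31.8 CPM in the Chat gate and 3.74 ± 2.71 CPM in the Gjd2 gate. Kcnj5, a subunit of G-protein-gated inward rectifiers, followed with 23.0 ± 5.57 CPM under the Gjd2 gate and 0.626 ± 0.221 CPM under the Gad gate, a ratio of 36.7. Kcnip1 came next, with 262 ± 25.8 CPM in the Vip gate and 13.0 ± 2.03 CPM in the Slc6a9 gate, a ratio of 20.2. Among the most even genes were Kcnu1 (ratio 1.46), a channel best known from sperm, and the noncoding Kcnq1ot1 (1.51). For 3 of the 53 genes every library of the highest gate lay above every library of the next: Kcna6 (Gad above Gjd2), Kcnab1 (Chat above Npy) and Kcnk2 (Chat above Npy). The same held for 2.13% of the 12366 genes that met the same minimum counts.

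The comparison of the Slc6a9 gate with the Gad gate asked how potassium channel genes differ between glycinergic and GABAergic cells. The gates differed in depth, with a median of 3664 UMIs per cell in the Slc6a9 gate and 5411 in the Gad gate. The Slc6a9 gate held 9.44% of the cells of batch 2 and 22.7% of those of batch 3. Of its cells, 17.6% lay in the Prom1 gate. The Slc6a9-gated cells had less of 4 of the 5 Shaker-type subunits, of the Shaw-type Kcnc2 and Kcnc4, of Kcnip1 and of the inward rectifier Kcnj12. They had more of the G-protein-gated rectifier Kcnj5, of Kcnh1 and Kcnh7, of the large-conductance calcium-activated channel Kcnma1 and of both small-conductance channels. Of the 58 genes 46 had enough counts for the test, and edgeR called 43 of these (adjusted p below 0.05), 19 higher and 24 lower in the Slc6a9 gate. Over all 11250 genes tested, 61.2% were called, so a call by itself was common. By direction, 32.1% of all genes were called higher and 29.1% lower. Differences of at least 2-fold were called for 11 Kcn genes higher and 15 lower, where the shares over the whole table were 4.84% and 7.99%. The median log2 change was -0.15 over the 46 genes and 0.03 over all genes tested. Batch 2 alone gave 43 calls, where 50% of the table was called, and batch 3 alone 45, where 54.8% was. Of the 32523 cells, 11268 carried 5 or more UMIs of other-class markers. Without these cells, 37 of 43 tested genes were called and 57.6% of the table.

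**Figure D2:**
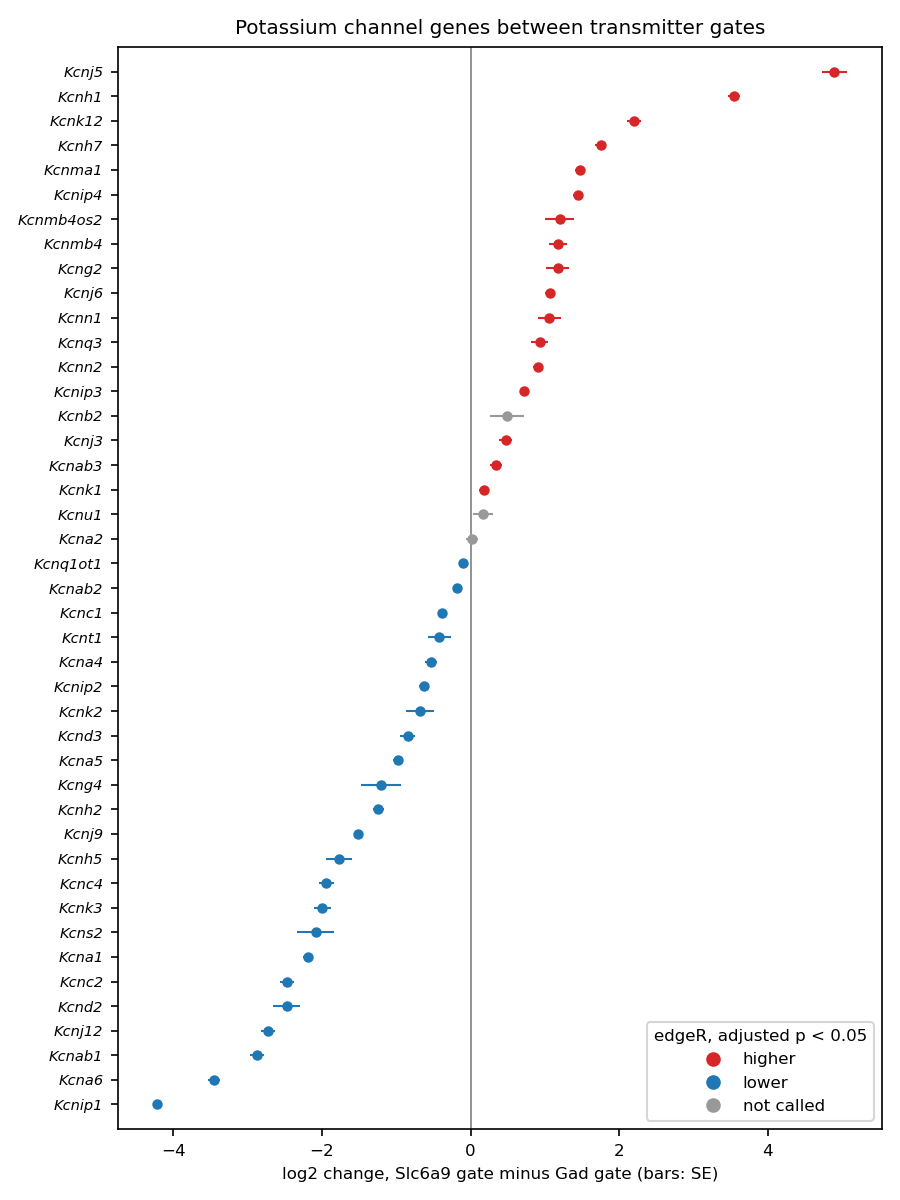
Log2 change of 43 of the tested genes, Slc6a9 gate minus Gad gate (x axis; points are edgeR estimates and bars are SE), ordered by size. The changes run from -4.22 for Kcnip1 to 4.90 for Kcnj5, and 3 genes were not called.

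Among the Shaker-type pore subunits, which open at low voltage and hold back firing, 4 of 5 were lower in the Slc6a9 gate. Kcna6 ranged from 256 to 311 CPM over the libraries of the Gad gate (median 304) and from 19.3 to 36.5 CPM in the Slc6a9 gate (median 27.3). The gates did not overlap, and the log2 change was -3.46 ± 0.08 (SE; edgeR adjusted p = 1.6e-19). Kcna1, a subunit found with Kcna2 near axon initial segments and juxtaparanodes, had 230 to 264 CPM in the Gad gate and 43.0 to 72.0 CPM in the Slc6a9 gate, again without overlap (log2 change -2.19 ± 0.06). Kcna5, the neighbour of Kcna1 on chromosome 6, had 190 to 267 CPM against 95.5 to 138 CPM, without overlap (-0.98 ± 0.06). The rapidly inactivating Kcna4 was lower by a smaller amount (-0.54 ± 0.08) and its libraries overlapped. Kcna2 was not called: it had 39.8 ± 8.33 CPM (Gad) and 41.7 ± 16.5 CPM (Slc6a9), with a log2 change of 0.02 ± 0.08, higher in 5 of 10 libraries. In batch 2 its change was 0.13 ± 0.09 (adjusted p = 0.23) and in batch 3 -0.28 ± 0.11 (edgeR adjusted p = 0.021).

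The Kcnab genes encode cytoplasmic subunits that bind Shaker-type channels, and Kcnab1 can confer fast inactivation on them. Kcnab1 ranged from 117 to 165 CPM in the Gad gate (median 148) and from 13.8 to 35.3 CPM in the Slc6a9 gate (median 19.8). No library of the Slc6a9 gate came near the Gad gate (log2 change -2.88 ± 0.09, edgeR adjusted p = 5.9e-17). Kcnab2 was lower by -0.19 ± 0.05 and Kcnab3 higher by 0.34 ± 0.08, and the libraries of both genes overlapped. The change of Kcnab3 was 0.63 ± 0.05 in batch 2 (edgeR adjusted p = 3.6e-19) and -0.01 ± 0.05 in batch 3 (adjusted p = 0.83).

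Kcnb2, a Shab-type delayed rectifier, was not called, at 28.2 ± 8.70 against 34.7 ± 15.4 CPM (0.49 ± 0.23, adjusted p = 0.071), higher in 4 of 10 libraries. Its direction differed between batches. In batch 2 it was lower in the Slc6a9 gate, at 25.4 ± 3.49 against 34.1 ± 2.99 CPM (n = 5, -0.42 ± 0.11, edgeR adjusted p = 0.00092). In batch 3 it was higher there, at 51.7 ± 3.81 against 18.6 ± 2.76 CPM (n = 4, 1.44 ± 0.10, edgeR adjusted p = 5.5e-24). Shaw-type subunits repolarize fast-spiking cells. Kcnc2 had 53.5 to 68.0 CPM in the Gad gate and 7.05 to 19.1 CPM in the Slc6a9 gate (-2.47 ± 0.10). Kcnc4 had 37.5 to 43.9 CPM against 5.81 to 14.2 CPM (-1.94 ± 0.10). Neither gene's gates overlapped. Kcnc1 was lower by only -0.38 ± 0.04.

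The Kcnd subunits carry A-type current, and the Kcnip proteins are calcium-binding partners that move these subunits to the membrane and tune their inactivation. Kcnip1 had the largest decrease of the tested genes, from 219 to 261 CPM in the Gad gate (median 233) to 9.18 to 16.3 CPM in the Slc6a9 gate (median 13.1). The gates were far apart in every library (log2 change -4.22 ± 0.06, edgeR adjusted p = 2.9e-22). Kcnd2 was lower in the same direction, with 13.0 to 21.2 CPM against 1.22 to 6.12 CPM and no overlap (-2.48 ± 0.18). Kcnd3 (-0.85 ± 0.10) and Kcnip2 (-0.63 ± 0.07) were lower by less, and Kcnd1 had too few counts for the test. The other partners went the opposite way. Kcnip4 had 89.3 to 148 CPM in Slc6a9-gated and 37.4 to 49.0 CPM in Gad-gated cells, without overlap (1.44 ± 0.07). Kcnip3, which also acts as a transcriptional repressor, was higher by 0.72 ± 0.06 in all 10 libraries.

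The Kcnh genes split by pairs. Kcnh1, an ether-a-go-go channel, ranged from 49.4 to 89.3 CPM among Slc6a9-gated cells (median 59.4) and from 3.05 to 7.68 CPM in the Gad gate (median 5.67), with no overlap (3.55 ± 0.08). Its close relative Kcnh5 went the other way, at 1.11 to 10.3 CPM in Slc6a9-gated and 9.90 to 18.1 CPM in Gad-gated cells; it was lower in every library although the ranges touched (-1.77 ± 0.17). Of the related ERG-type channels, Kcnh7 was higher in the Slc6a9 gate (63.2 to 106 against 20.6 to 31.5 CPM, 1.75 ± 0.07). Kcnh2 was lower (39.4 to 63.0 against 107 to 129 CPM, -1.24 ± 0.07). Neither ERG-type gene overlapped between gates.

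Inward rectifier genes went both ways. Of the strong rectifiers that hold the resting potential, Kcnj12 had 34.2 to 46.4 CPM in the Gad gate and 4.55 to 10.6 CPM in the Slc6a9 gate, without overlap (-2.73 ± 0.10). Kcnj2 had 2.56 ± 1.24 CPM in the Gad gate and 3 UMIs in the whole Slc6a9 gate, and was not tested. Of the G-protein-gated subunits, Kcnj5 ranged from 13.0 to 31.5 CPM in the Slc6a9 gate (median 17.0) and from 0.299 to 0.887 CPM in the Gad gate (median 0.639). This was the largest increase of the tested genes, and the gates lay far apart (4.90 ± 0.17, edgeR adjusted p = 6.0e-16). Kcnj6 was higher in all 10 libraries (28.2 to 45.7 against 12.6 to 19.9 CPM, 1.07 ± 0.07) and Kcnj3 in 9 of 10 (0.47 ± 0.09). Kcnj9 was lower, with 39.7 to 72.3 against 132 to 172 CPM and no overlap (-1.51 ± 0.06).

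**Figure D3:**
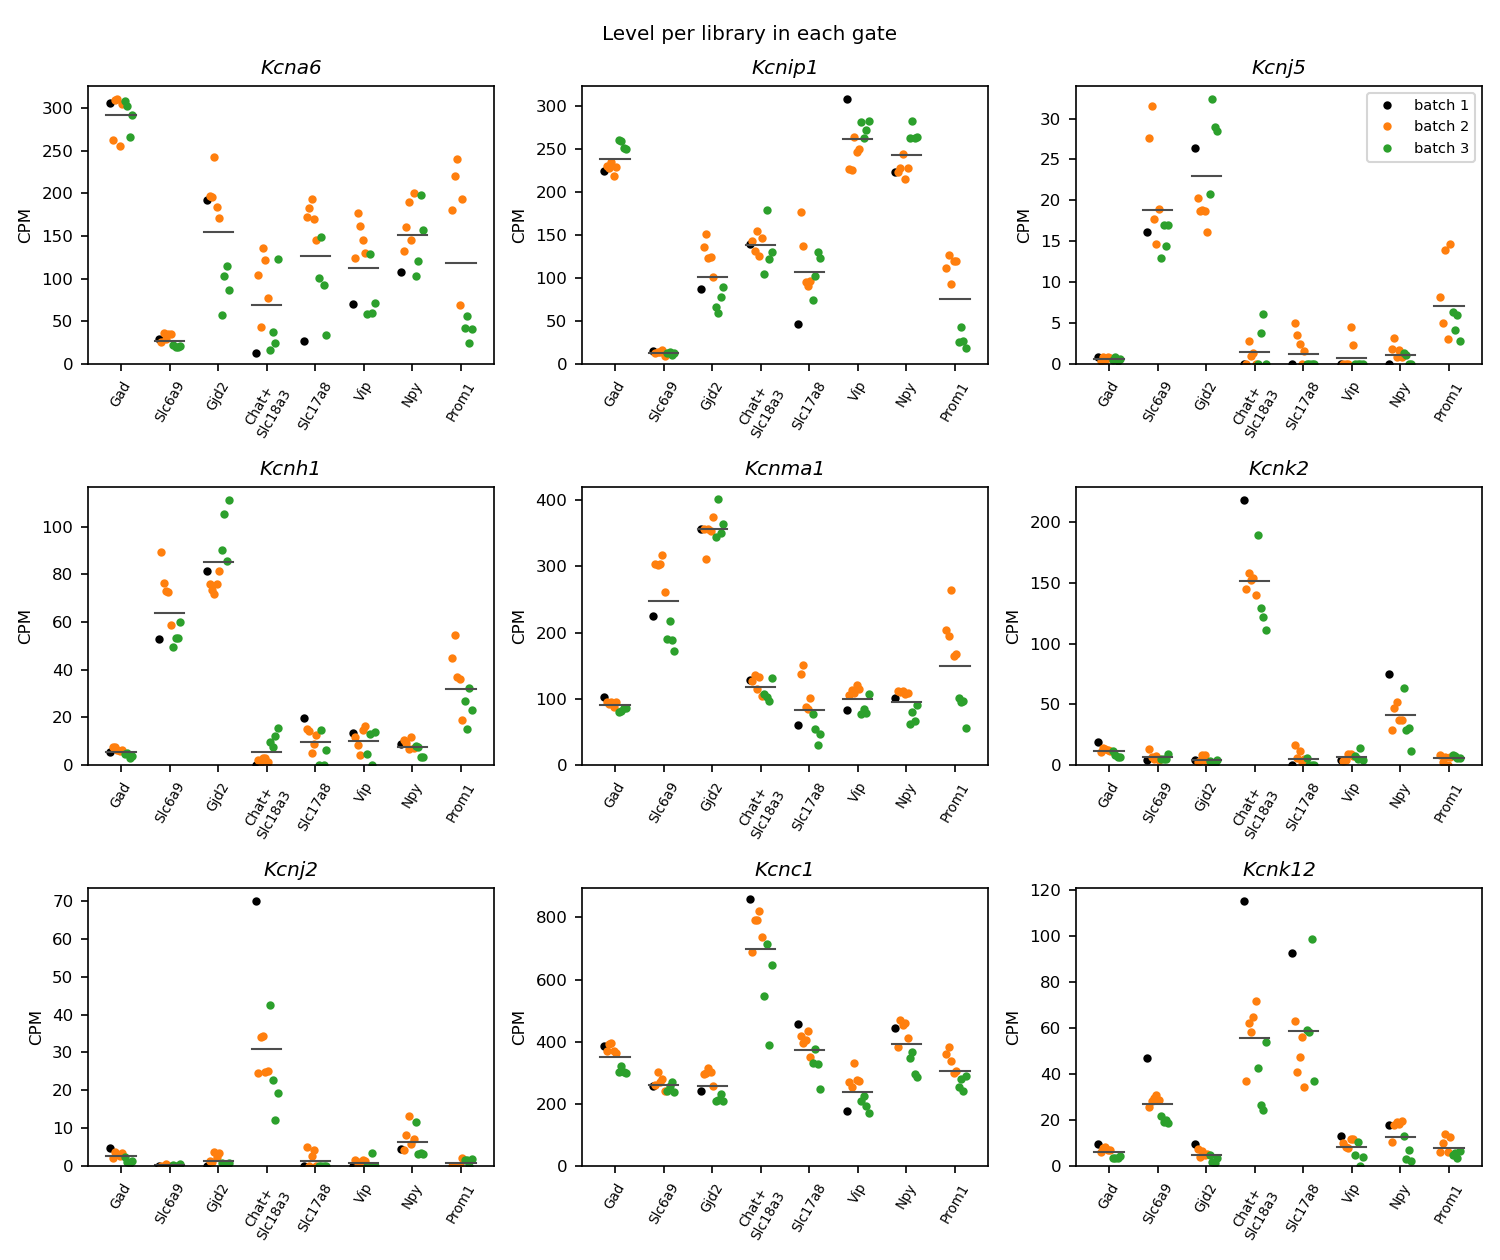
Level of 9 genes in each library (points, CPM, coloured by batch) in the 8 gates, with the mean over libraries as a line; library 1 has no point in the Prom1 gate, where it held 9 cells. Kcna6 and Kcnip1 lie near the bottom in every library of the Slc6a9 gate, and Kcnk2 and Kcnj2 are high in every library of the Chat gate.

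Two-pore-domain channels also went both ways. Kcnk12 was higher in the Slc6a9 gate, at 18.6 to 47.0 CPM against 3.34 to 9.54 CPM in the Gad gate, without overlap (2.20 ± 0.10). Kcnk3, an acid-sensitive leak channel, was lower, at 4.25 to 13.3 against 30.6 to 44.0 CPM, also without overlap (-2.0 ± 0.12). Kcnk1 (0.18 ± 0.07) and Kcnk2 (-0.68 ± 0.19) were called with overlapping libraries, and Kcnk4 and Kcnk10 were not tested.

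All 4 tested genes of the large- and small-conductance calcium-activated channels were higher in the Slc6a9 gate. Kcnma1, the pore of the large-conductance channel, had 173 to 317 CPM (median 243) against 79.6 to 103 CPM in the Gad gate (median 89.6), without overlap (1.48 ± 0.07). Its auxiliary subunit Kcnmb4 was higher in every library, though the ranges overlapped (8.27 to 29.9 against 4.07 to 12.5 CPM, 1.18 ± 0.12). Kcnmb4os2, whose annotation overlaps that of Kcnmb4, was higher by 1.20 ± 0.19. Whether the counting used strand is not given in the sources used here, so reads of this pair could not be told apart. The small-conductance channels Kcnn1 (1.06 ± 0.16, 9 of 10 libraries) and Kcnn2 (0.91 ± 0.07, 10 of 10) were both higher. Kcnmb2 had 4.79 ± 1.69 CPM in Slc6a9-gated and 0.960 ± 0.506 CPM in Gad-gated cells, without overlap, but fell below the count filter and was not tested.

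The M-current subunit Kcnq3 was higher in the Slc6a9 gate (0.93 ± 0.12), in 9 of 10 libraries. Silent subunits, which form channels only with Shab-type pores, were few in counts: Kcng2 was higher (1.17 ± 0.15), and Kcng4 (-1.20 ± 0.27) and Kcns2 (-2.09 ± 0.25) were lower. The sodium-activated Kcnt1 was lower by -0.42 ± 0.16, and Kcnu1 was not called (0.17 ± 0.13). The noncoding Kcnq1ot1, an imprinted antisense transcript of Kcnq1, was lower by -0.11 ± 0.03 and overlapped widely. Besides those named above, Kcnh6, Kcnh8, Kcnd3os, Kcne1l, Kcne2 and Kcns1 had too few counts for the test.

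Of 25 listed partners of potassium channels and related cation channels that are not named Kcn, 21 were tested, and 4 were higher and 13 lower in the Slc6a9 gate, where 32.1% and 29.1% of all genes were called in these directions. Lrrc38, an auxiliary subunit of the large-conductance calcium-activated channel, was lower by -4.49 ± 0.24, opposite in sign to Kcnma1 and Kcnmb4. Dpp10, a partner of A-type channels, was lower by -3.01 ± 0.22, whereas its relative Dpp6 was higher by 0.77 ± 0.04. The secreted Lgi2 (-3.10 ± 0.28) and Lgi3 (-2.57 ± 0.25), relatives of a ligand that tunes Shaker-type channels, were lower too. Amigo1, an adhesion protein that partners voltage-gated channels, was higher by 0.74 ± 0.10.

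Each type gate was then compared with all other cells of the same libraries. These comparisons share most of their remaining cells, so they are not set against each other here. Many cells fell in more than 1 gate: 77.6% of the Chat gate, 70.5% of the Vip gate and 77.3% of the Npy gate lay in the Gad gate, and 48.1% of the Gjd2 gate, 28.5% of the Slc17a8 gate and 59.1% of the Prom1 gate in the Slc6a9 gate. For this reason each type gate was also compared with the rest of its class alone, with both arms inside the Slc6a9 or the Gad gate; this comparison was chosen after seeing the data.

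Cells of the Gjd2 gate had more Kcnh1, Kcnj5, Kcnma1 and Kcnq3 than the other cells, and less Kcnip4, Kcnk2 and Kcnk12. Of 48 tested genes 14 were higher and 24 lower, and 48.4% of 11647 genes were called (23.9% higher, 24.5% lower). Differences of at least 2-fold were called for 5 genes higher and 4 lower, where 2.65% and 3.14% of the table passed. Kcnma1 ranged from 311 to 401 CPM (median 357) in the gate and from 77.9 to 103 CPM in the rest (median 94.2), with no overlap (log2 change 2.01 ± 0.06, edgeR adjusted p = 7.0e-17). Kcnh1 had 71.6 to 111 CPM against 7.62 to 14.1 CPM (3.06 ± 0.10), and Kcnj5 had 16.1 to 32.4 CPM against 1.48 to 3.86 CPM (3.02 ± 0.16). Both were high in every library of the gate. Kcnq3, an M-current subunit, had 20.8 to 38.2 against 4.76 to 12.5 CPM, without overlap (1.67 ± 0.13). Kcnh7 was higher by 1.18 ± 0.06, but not against the Slc6a9-gated cells outside the gate (0.08 ± 0.09, adjusted p = 0.48).

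Lower in the Gjd2 gate by at least 2-fold in the fit were Kcnmb2 (-1.53 ± 0.37), Kcnip4 (-1.38 ± 0.11), Kcnk2 (-1.33 ± 0.21) and Kcnk12 (-1.13 ± 0.15). Each was lower in all 10 libraries. Kcnmb2 had only 14 UMIs in the gate. Within the Slc6a9 gate, 934 Gjd2-gated cells were set against 3622 others, and 11 genes were higher and 12 lower of 29 tested. Of 7158 genes 44.7% were called there (21.9% higher, 22.8% lower). Kcnh1 (2.34 ± 0.11), Kcnq3 (2.30 ± 0.20), Kcnj5 (2.24 ± 0.19) and Kcnma1 (2.14 ± 0.07) were higher there too. Kcnh2 was higher by 1.33 ± 0.12 within the class and by 0.36 ± 0.06 against all other cells. Kcnb2 (-3.38 ± 0.26), Kcnip4 (-3.25 ± 0.16) and Kcnk12 (-2.86 ± 0.25) had the largest decreases within the class.

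Cells of the Chat gate had more Kcnk2, Kcnj2, Kcnk12, Kcnb2, Kcnc1 and Kcnab1 and less of 4 of the 5 Shaker-type genes, of the 4 tested Kcnh genes and of the 4 Kcnip genes than the other cells. Of 48 tested genes 14 were higher and 20 lower, and 34.7% of 11416 genes were called (16.8% higher, 18% lower). Differences of at least 2-fold numbered 8 higher and 16 lower, where 4.04% and 7.06% of the table passed. Batch 2 alone gave 34 calls, with 29.5% of the table called, and batch 3 alone, with 129 Chat-gated cells, 22, with 11.8%.

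Kcnk2, a leak channel opened by stretch, heat and lipids, ranged from 111 to 218 CPM over the libraries of the Chat gate (median 149). In the other cells it ranged from 3.65 to 8.09 CPM (median 5.61). Every library showed the difference (log2 change 4.79 ± 0.10, edgeR adjusted p = 1.5e-24), and it was the same in batch 2 (4.76 ± 0.11) and batch 3 (4.76 ± 0.25). Within the Gad gate, with 505 Chat-gated cells against 15910, the change was 5.08 ± 0.11. Kcnj2, a strong inward rectifier, ranged from 12.2 to 70.0 CPM in the gate (median 25.1) and from 0.394 to 1.86 CPM in the rest, without overlap (4.65 ± 0.22).

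Among the voltage-gated genes, the Shaw-type Kcnc1 had 389 to 860 CPM in the Chat gate (median 726) and 283 to 364 CPM in the rest (1.19 ± 0.06). Kcnc2 was higher as well (0.66 ± 0.09), and Kcnc4 was not called. Shab-type Kcnb2 had 60.7 to 247 CPM against 23.8 to 31.8 CPM, without overlap (2.42 ± 0.11), and Kcnab1 225 to 284 CPM against 90.1 to 129 CPM (1.22 ± 0.07). No library of the gate fell into the range of the other cells for these 2 genes or for Kcnc1. Kcnk12 (2.71 ± 0.15) and Kcnmb4os2 (2.44 ± 0.23) were also higher in all libraries, and Kcnmb4 in 9 of 10 (2.20 ± 0.15).

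Of the Shaker-type genes 4 were lower in the Chat gate, as were all 4 Kcnip genes and all 4 Kcnh genes tested. Kcna6 had 12.4 to 136 CPM in the gate (median 60.4) and 211 to 282 CPM in the rest, without overlap (-1.57 ± 0.16). Kcna5 (-1.19 ± 0.11) and Kcna1 (-1.11 ± 0.12) were lower without overlap too. Kcnip3 had 12.4 to 68.5 CPM against a median of 109 CPM in the rest (-1.60 ± 0.13). Kcnh1 (-2.06 ± 0.30), Kcnj3 (-1.70 ± 0.27), Kcnh7 (-1.48 ± 0.14) and Kcnh2 (-1.41 ± 0.14) were lower in every library. For Kcnh1 the call was lost against Gad-gated cells alone (-0.60 ± 0.41, adjusted p = 0.27) and in batch 3 alone (-0.55 ± 0.45, adjusted p = 0.55).

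Of the 21 partner genes tested in the Chat gate, 4 were higher and 6 lower, where 16.8% and 18% of all genes were called in these directions. Lgi3 was higher by 4.13 ± 0.16, and Abcc8, the sulfonylurea receptor that forms ATP-sensitive channels with inward rectifier pores, by 3.82 ± 0.17. Cntnap2, which clusters Shaker-type channels along axons, was higher by 1.95 ± 0.06 although Kcna1, Kcna5 and Kcna6 were lower. Lrrc38 (-2.14 ± 0.33) and Dpp6 (-1.06 ± 0.09) were lower.

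In the Slc17a8 gate 9 of 47 tested genes were higher and 21 lower, and 25.1% of 11459 genes were called (10.6% higher, 14.5% lower). At least 2-fold were 3 higher and 6 lower, where 2.78% and 3.04% of the table passed. Kcnk12, a two-pore-domain channel that is silent or weakly active when expressed alone, ranged from 34.4 to 98.8 CPM in the gate (median 57.2) and from 6.40 to 14.1 CPM in the rest (median 9.46). The gate lay above the rest in every library (2.47 ± 0.16, edgeR adjusted p = 7.2e-14). Kcnab2 had 73.0 to 270 CPM against 67.5 to 92.1 CPM, higher in 10 of 10 libraries although the ranges overlapped (1.09 ± 0.09). Kcna2 had 58.3 to 133 CPM against 29.6 to 55.7 CPM and did not overlap (0.96 ± 0.11).

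Kcnh7 was higher in the Slc17a8 gate against all other cells (1.05 ± 0.09) but not within the Slc6a9 gate (-0.04 ± 0.18, adjusted p = 0.92). Kcns2 (-1.42 ± 0.45), Kcnj5 (-1.31 ± 0.46), Kcnc2 (-1.21 ± 0.18), Kcnip2 (-1.09 ± 0.13) and Kcnk1 (-1.06 ± 0.10) were lower in every library. Their changes of at least 2-fold are those fitted over all libraries and were not reached in each library. The calls of Kcns2 (9 UMIs in the gate) and Kcnj5 (8 UMIs) were lost in batch 2 alone (adjusted p = 0.11 and 0.30). That of Kcns2 was also lost without the library block (adjusted p = 0.051) and that of Kcnj5 with DESeq2 (adjusted p = 0.079). Within the Slc6a9 gate, 190 Slc17a8-gated cells differed from 4366 others for 15 of 23 tested genes, 9 higher and 6 lower. Of 5637 genes 24.6% were called there (12.4% higher, 12.2% lower). There Kcnab1 was higher by 3.73 ± 0.21, although against all other cells it was higher by only 0.31 ± 0.06 (113 to 167 against 96.4 to 133 CPM). Kcnab2 (1.88 ± 0.15), Kcnk12 (1.35 ± 0.26) and Kcna2 (1.17 ± 0.23) were higher within the class as well, and Kcnh1 (-2.77 ± 0.35) was lower.

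**Figure D4:**
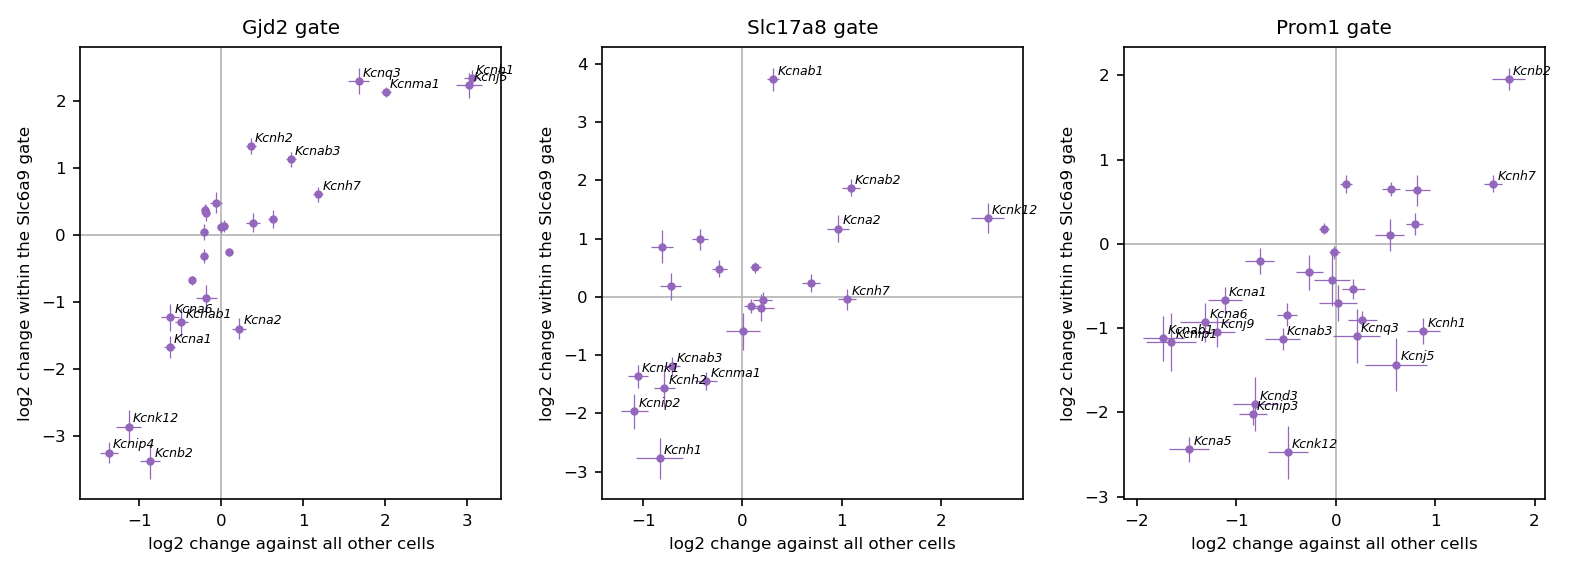
Log2 change of tested genes in the Gjd2, Slc17a8 and Prom1 gates, against all other cells (x axis) and inside the Slc6a9 gate alone (y axis), with SE bars; the axes share the gated cells that lie in the Slc6a9 gate. Kcnab1 in the Slc17a8 panel stands at 0.31 on the x axis and 3.73 on the y axis, and Kcnma1 in the Gjd2 panel at 2.01 and 2.14.

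No gene was higher by at least 2-fold in the Vip gate, where 10 of 47 tested genes were higher and 20 lower and 25.6% of 11429 genes were called (12.5% higher, 13.1% lower). The shares of the table past 2-fold were 1.85% higher and 3.39% lower, and 8 Kcn genes were lower by that size. The Shaker-type Kcna1 had 225 to 353 CPM against 190 to 231 CPM in the rest, higher in 10 of 10 libraries (0.54 ± 0.05). The A-type subunits Kcnd2 and Kcnd3 were both higher, Kcnd3 at 53.7 to 74.3 against 36.3 to 54.3 CPM (0.53 ± 0.08), and so was their partner Kcnip1 (0.48 ± 0.05, 225 to 308 against 174 to 196 CPM, no overlap). In the Gad gate Kcnip1 had 219 to 261 CPM. The other Kcnip genes were lower in the Vip gate: Kcnip2 (-0.90 ± 0.08), Kcnip3 (-0.20 ± 0.07) and Kcnip4 (-1.28 ± 0.12). Dpp10, a partner of A-type channels, was higher by 1.42 ± 0.16, and its relative Dpp6 was not called (-0.13 ± 0.06). The 6 largest fitted decreases of at least 2-fold among genes lower in every library were Kcne1l (-1.77 ± 0.50), Kcnmb4 (-1.56 ± 0.27), Kcnip4 (-1.28 ± 0.12), Kcnq3 (-1.16 ± 0.23), Kcnab1 (-1.15 ± 0.10) and Kcnh2 (-1.01 ± 0.10). Kcne1l had only 6 UMIs in the gate and Kcnmb4 had 22. Kcnab1 had 8.80 to 81.3 CPM in the gate and 100 to 138 CPM in the rest, without overlap. In batch 3 alone Kcne1l (adjusted p = 0.60) and Kcnq3 (adjusted p = 0.20) were not called.

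In the Npy gate 16 of 50 tested genes were higher and 20 lower, and 28.7% of 11660 genes were called (15.4% higher, 13.3% lower). Past 2-fold were 2 Kcn genes higher and 4 lower, where 1.38% and 2.5% of the table passed. Kcnk2 ranged from 11.8 to 75.2 CPM in the gate (median 37.2) and from 4.01 to 11.6 CPM in the rest (median 7.37), without overlap (2.42 ± 0.14, edgeR adjusted p = 1.8e-13). The Npy gate shared 277 cells with the Chat gate, 42.5% of the Chat gate and 17.9% of the Npy gate. Without the Chat-gated cells Kcnk2 had a log2 change of -0.68 ± 0.28 (adjusted p = 0.065), and Kcnj2, higher by 2.06 ± 0.23 in the whole gate, fell below the count filter. In the Chat gate without Npy-gated cells Kcnk2 was higher by 4.14 ± 0.17.

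The other genes of the Npy gate changed by less. Kcnip1 was higher by 0.39 ± 0.04 (215 to 282 against 175 to 194 CPM, no overlap). Its mean in the Npy gate, 243 ± 23.0 CPM, was close to that in the Gad gate, 239 ± 15.1 CPM. All 5 Shaker-type genes were lower, from -0.12 ± 0.04 for Kcna5 to -0.67 ± 0.05 for Kcna1. Kcnj5 (-1.79 ± 0.29), Kcnip4 (-1.16 ± 0.09) and Kcnh1 (-1.12 ± 0.13) were lower by at least 2-fold without overlap. The mean of Kcnj5 in the Npy gate, 1.09 ± 1.01 CPM, was not below that in the Gad gate, 0.626 ± 0.221 CPM. Kcnh1 was not called within the Gad gate (-0.17 ± 0.20, adjusted p = 0.64).

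The Prom1 gate, whose gene product was a mark for exclusion in the sort, held 9.46% of the cells of batch 3 and 1.57% of those of batch 2. It was tested in 9 libraries, since library 1 held 9 such cells. Of 52 tested genes 12 were higher and 19 lower, and 31.9% of 12140 genes were called (15% higher, 16.9% lower). Past 2-fold were 4 Kcn genes higher and 10 lower, where 3.14% and 6.5% of the table passed; batch 2 alone gave 21 calls (13.7% of the table) and batch 3 alone 37 (39.4%). Kcnb2 ranged from 54.4 to 123 CPM in the gate (median 92.7) and from 20.2 to 36.2 CPM in the rest, without overlap (1.74 ± 0.17). Kcnh7 had 73.6 to 130 CPM against 32.2 to 43.9 CPM, also without overlap (1.58 ± 0.09). These 2 genes were higher within the Slc6a9 gate too, Kcnb2 by 1.96 ± 0.13 and Kcnh7 by 0.71 ± 0.10.

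In the Prom1 gate, the 6 largest fitted decreases of at least 2-fold among genes lower in all 9 libraries were Kcnab1 (-1.73 ± 0.21), Kcnip1 (-1.66 ± 0.25), Kcnj12 (-1.63 ± 0.22), Kcna5 (-1.47 ± 0.20), Kcna6 (-1.31 ± 0.25) and Kcnj9 (-1.20 ± 0.19). Their size differed between batches. Kcna6 stood at 181 ± 66.7 CPM in batch 2 and 41.2 ± 13.0 CPM in batch 3 (n = 5 and 4), with log2 changes of -0.50 ± 0.08 and -2.41 ± 0.09. Kcnip1 stood at 114 ± 13.0 and 28.3 ± 10.6 CPM, with -0.79 ± 0.09 and -2.79 ± 0.10. Against the Slc6a9-gated cells outside the gate, Kcnip1 (2.15 ± 0.28), Kcna6 (1.78 ± 0.23) and Kcnab1 (0.79 ± 0.24) were higher instead. With both arms inside the Slc6a9 gate they were lower (-1.16 ± 0.35, -0.93 ± 0.23 and -1.12 ± 0.27). Kcna5 had 39.3 to 138 CPM in the gate and 178 to 237 CPM in the rest, and was lower by -2.44 ± 0.15 within the class.

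The type gates were last compared with each other, over the 5804 cells that fell in exactly 1 of the 6 gates; 631 cells in several gates were left out. Of the 58 genes 36 had enough counts, and all 36 differed among the gates by the F test of edgeR, as did 71.1% of 8009 genes. A gene was called highest in a gate where it exceeded each of the other gates in a separate test; this held for 17 of the 36 genes and for 19.9% of all genes tested. The corresponding lowest calls held for 5 of the 36 and for 8.37% of all.

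The Gjd2 gate was highest for Kcnh1, Kcnma1, Kcnq3, Kcnab3 and Kcnh2. Kcnh1 exceeded the next gate, Prom1, by a log2 of 2.35, and Kcnma1 exceeded the Chat gate by 1.56. The Chat gate was highest for Kcnk2, Kcnc1, Kcnab1 and Kcnc2, with Kcnk2 at least 3.78 above every other gate and Kcnc1 0.76 above the Slc17a8 gate. The Prom1 gate was highest for Kcnj3, Kcnk1 and Kcnh7, with margins of 1.22, 0.47 and 0.43 over the nearest gate. For Kcnk1 this differed by batch. Over all cells of the Prom1 gate, it had 104 to 122 CPM in batch 2 and 184 to 208 CPM in batch 3. In the Chat gate it had 100 to 151 and 85.0 to 167 CPM.

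The Slc17a8 gate was highest for Kcna2 (0.80 above the Gjd2 gate), Kcnab2 (0.48 above Vip) and Kcnip3 (0.41 above Npy), and lowest for Kcnk1. The Vip gate was highest for Kcna1 (1.09 above Slc17a8) and Kcnd3 (0.62 above Npy), and the Npy gate was highest for none. The Prom1 gate was lowest for Kcna5, Kcnip1, Kcnj12 and Kcnab1. The 3 Kcnab subunits had different highest gates, Kcnab1 the Chat, Kcnab2 the Slc17a8 and Kcnab3 the Gjd2 gate.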

How the data were processed

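Single-cell RNA from sorted retinal cells of mice at postnatal day 19 was made into 10 Chromium 3′ libraries, per the labels' protocols. The deposited values are raw counts of UMIs, a row for each gene and a column for each cell. The authors ran Cell Ranger 2.1.0 with mm10, according to the submitters' processing notes. Their annotation, cell filtering, doublet handling and strand setting were not given in the sources used here. All deposited cells were used and no doublet caller was run. Each cell had at least 601 genes.

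Counts were summed per library and gate, and a library entered with at least 10 cells in the gate. No 2 libraries agreed within sampling noise (the smallest chi-square per gene between libraries was 2.49). Levels (CPM) are counts per 1000000 UMIs of the summed cells. Tests used edgeR 4.0.16 in R 4.3.3: filterByExpr, TMM scaling, the library as a block and the quasi-likelihood F test, with Benjamini-Hochberg adjustment over all genes tested at 0.05. The code was tested on simulated data. DESeq2 1.42.0, other scaling and filters, no block, 1 UMI more per gate, each of batches 2 and 3 alone, cells of 2000 to 8000 UMIs, cells with under 5 UMIs of other-class markers and other comparators were alternatives.

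Genes were named where called, changed at least 2-fold and in the same direction in every library (up to 15 per direction between the transmitter gates and 6 per type gate), where highest in 1 type gate, and by UMIs and gate ratio within each subfamily; others were named to complete their subfamily. The members and lists were chosen with earlier results of these data known. Promoters are from RefSeq, and 15 genes had none in the table, among them Kcnq3, Kcnn2, Kcnu1, Kcng2, Kcnt1, Kcnab3, Kcna1, Kcnd1, Kcns2, Kcnk3 and Kcnb2. A few genes count in the totals but are not reported here by name.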

Additional observations from a re-analysis of the deposited data

Results flagged for a closer look

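Of 104 gate levels of named genes checked over 10 libraries, 12 had a library standing apart from the others, where chance flags about 1 in 20. Of these 12, 9 were in library 1, the sole library of batch 1. In the Slc6a9 gate, library 1 had 35.27 CPM of Kcnab1 (next library 24.49), 47.02 CPM of Kcnk12 (next 30.99) and 13.23 CPM of Kcnmb4os2 (next 7.346, 9 UMIs). In the Chat gate it had 69.96 CPM of Kcnj2 (next 42.42, 17 UMIs), 115.2 CPM of Kcnk12 (next 71.82) and 49.38 CPM of Kcnmb4os2 (next 30.37, 12 UMIs). In the Gad gate it was high for Kcnip4 at 49.04 CPM (next 43.28) and for Kcnmb4 at 12.46 CPM (next 8.441), and low for Kcnj12 at 34.2 CPM (next 41.57).

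Elsewhere, library 10 had a low level of Kcnh5 in the Gad gate, 9.895 CPM (next 13.72). Library 3 had 101.5 CPM of Kcnip2 in the Slc17a8 gate (next 57.39), and library 5 had 10.6 CPM of Kcnj12 in the Slc6a9 gate (next 7.712).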

How the results depend on the processing

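Of 771 values of 72 named log2 changes under the alternatives, 752 kept their direction and side of the threshold, 11 lost the call and 8 reversed. Cases where a gene was not tested under an alternative are not among the 771. An example is Kcnj2 in the Npy gate without Chat-gated cells. Of 90 counts of called genes, 86 stayed within 1.5 times. The 4 that did not were 23 in the Gjd2 gate (38 against all cells) and 15 in the Slc17a8 gate (30) with both arms within the Slc6a9 gate, and 22 in the Chat gate (34 in all libraries) and 20 in the Npy gate (36) in batch 3 alone. Within the Slc6a9 gate fewer genes were tested, and batch 3 holds fewer libraries.

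Kcnh7 in the Slc17a8 gate reversed to -0.12 against Slc6a9-gated cells and to -0.039 with both arms in that gate. Kcnk2 in the Npy gate reversed to -0.68 without Chat-gated cells, and Kcnh1 there to 0.40 against Gad-gated cells. In the Prom1 gate against Slc6a9-gated cells, Kcnab1 was 0.79, Kcnj9 1.41e-05, Kcnip1 2.15 and Kcna6 1.78. That comparator has no Gad UMI by construction, which the Prom1, Gjd2 and Slc17a8 gates do not require. Splits of higher and lower calls moved by over 10 points against Slc6a9-gated cells (Gjd2 20 and 8, Slc17a8 13 and 9, Prom1 14 and 9). They also did with both arms within the Slc6a9 gate (Gjd2 11 and 12 against 14 and 24, Slc17a8 9 and 6 against 9 and 21, Prom1 6 and 17 against 12 and 19) and for Slc17a8 in batch 2 alone (11 and 16).

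Counts between the transmitter gates ran from 37 to 51, and 37 of 43 tested genes were called without cells carrying other-class markers. Both arms of each test came from the same libraries, so the tests were paired through a library block. Without the block 40 genes were called between the transmitter gates (43 with it), 34 in the Gjd2 gate, 34 in the Chat, 26 in the Slc17a8, 27 in the Vip, 28 in the Npy and 32 in the Prom1 gate, and 35 among the type gates. Depth limited the type gates, and 12 genes were not tested between the transmitter gates.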
